A study of Mus musculus with 12 samples.

Results

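The genes described here encode the proteases that cut the extracellular matrix and the proteins that hold them in check: the matrix metalloproteinases (Mmp genes), the ADAMTS proteases (Adamts), the ADAMTS-like proteins (Adamtsl), which keep the ancillary domains but have no protease domain, and the tissue inhibitors of metalloproteinases (Timp). They were chosen by symbol alone, as every gene of the deposited table named Mmp, Adamts, Adamtsl or Timp with a number and at most one closing letter, without Mmp9. This gave 50 of the 51341 genes: 22 Mmp, 19 Adamts, 5 Adamtsl and 4 Timp genes. Expression had been measured by RNA sequencing in trigeminal ganglia, the sensory ganglia of the face and the meninges, of mice responsive to the neuropeptide PACAP and of mice that were not. All 12 mice were of the outbred CD1 stock, with 3 males and 3 females among the 6 responders and again among the 6 non-responders, and the labels name no allele and no age. They do not say how a response was scored, nor whether or when PACAP was given before the ganglia were taken. Values are FPKM, fragments scaled by the length of the gene model and the size of the library, so that levels can be compared between genes of different length.

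MMPs and ADAMTS proteases are zinc enzymes that are made as inactive precursors. MMPs as a group cut collagens, gelatin and many other matrix and cell-surface proteins, whereas ADAMTS enzymes have narrower substrates such as aggrecan, versican, procollagen and von Willebrand factor. TIMPs block the zinc site of the active enzyme. In peripheral ganglia and nerves these proteins come from fibroblasts, Schwann cells, vessels, immune cells and neurons, and they are known for their part in nerve injury, myelin turnover and pain.

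The table was that of a sensory ganglion: all 14 sensory neuron markers were above 0 in every mouse and summed to between 3500 and 7130 FPKM in responders and between 3940 and 6020 in non-responders. The commonest low values of single-exon genes implied between 17200000 and 38500000 fragments per mouse. Responder 1 and non-responder 4 stood apart from the others, with scores of 72.7 for non-responder 4 on a first principal component (28% of the variance) and of 69.7 for responder 1 on the following one (18.7%). Responder 1 had the smallest implied depth and the highest sum of pituitary markers (78200 FPKM), and non-responder 4 had the largest implied depth and the highest sum of neutrophil markers (4320 FPKM). The pituitary sum was 360 to 78200 FPKM in responders (median 2450) and 27.4 to 1060 in non-responders (median 359), so it was not high in responder 1 alone. The description of each mouse opens with a number, 7 numbers in all, whose meaning the labels do not give. Each number held mice of a single response group and of a single sex, so that the number cannot be told apart from the response or the sex.

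Of the 50 genes, 29 entered the test, which asked for at least 1 FPKM in at least 3 mice, and 19 of them reached 1 FPKM in all 12. Among the other 21 genes, 18 never reached 1 FPKM and 13 were listed at 0 in at least 1 mouse. An exact 0 in this table is a listing and no proof of absence, since the macrophage gene Cd68 and the pericyte gene Pdgfrb were also listed at 0 in at least 1 mouse. Values near 0 call for the same caution. The fibrillin gene Fbn1 was listed at 0.00194 FPKM in responder 1 and at 3.67 in responder 6. Values differed by large factors between genes, with 5 of the 50 averaging at least 10 FPKM: Timp2, Mmp15, Mmp2, Mmp14 and Adamtsl5.

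A cluster of 10 Mmp genes on chromosome 9 spans 427 kb from 7272514 to 7699585 of GRCm38. It holds, in order, Mmp13, Mmp12, Mmp1b, Mmp3, Mmp1a, Mmp10, Mmp8, Mmp27, Mmp20 and Mmp7. The start regions of its only tested genes, Mmp13 and Mmp8, are shown beside those of Timp2, the most abundant of the 50 genes, and Adamts2, the procollagen N-proteinase with the smallest p. Each is the stretch of 250 bases before the RefSeq start on GRCm38.p6, written 5′ to 3′ on the strand of the gene. Capitals mark matches, on either strand, to the AP-1 motif TGANTCA, the Runx core TGTGGT, the TATA motif TATAAA and the GC box GGGCGG. No matches overlapped.
Mmp13, chr9:7272264-7272513, plus strand: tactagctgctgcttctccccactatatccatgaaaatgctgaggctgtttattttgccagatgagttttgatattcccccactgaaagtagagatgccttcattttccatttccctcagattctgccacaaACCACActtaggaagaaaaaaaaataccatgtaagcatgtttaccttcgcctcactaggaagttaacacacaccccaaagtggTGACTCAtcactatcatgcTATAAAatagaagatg
Mmp8, chr9:7558179-7558428, plus strand: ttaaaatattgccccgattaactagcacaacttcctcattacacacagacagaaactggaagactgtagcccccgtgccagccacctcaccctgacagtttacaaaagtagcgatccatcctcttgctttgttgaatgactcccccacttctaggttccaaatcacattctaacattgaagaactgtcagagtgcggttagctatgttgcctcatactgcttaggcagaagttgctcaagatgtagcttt
Adamts2, chr11:50601835-50602084, plus strand: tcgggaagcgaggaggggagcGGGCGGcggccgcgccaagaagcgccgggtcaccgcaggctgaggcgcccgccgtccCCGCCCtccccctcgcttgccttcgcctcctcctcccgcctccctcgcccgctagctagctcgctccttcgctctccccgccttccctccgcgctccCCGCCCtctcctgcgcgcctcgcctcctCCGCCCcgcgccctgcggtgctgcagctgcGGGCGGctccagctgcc
Timp2, chr11:118355412-118355661, minus strand: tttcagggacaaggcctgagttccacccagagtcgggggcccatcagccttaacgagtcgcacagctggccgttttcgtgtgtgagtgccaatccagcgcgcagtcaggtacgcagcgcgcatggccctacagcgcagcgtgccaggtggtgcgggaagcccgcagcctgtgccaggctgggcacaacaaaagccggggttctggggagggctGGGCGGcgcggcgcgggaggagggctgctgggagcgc

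The Mmp13 stretch held an AP-1 match at positions -35 to -29 from the start, a Runx match at -118 to -113 and a TATA match at -16 to -11. The Mmp8 stretch held none of the 4 motifs, and its RefSeq start lies 27 bases before its start in GENCODE M21. Adamts2 held 5 GC boxes and no other match, and Timp2 held 1 GC box. RefSeq promoter entries were found for 36 of the 50 genes. An AP-1 match occurred in 8 of the 10 chromosome 9 Mmp genes and in 0 of the other 26 genes, while a GC box occurred in 0 of the 10 and in 20 of the 26. Over 32851 mouse promoters of this length, 6.75% held the AP-1 motif, 14.0% the Runx core, 12.4% the TATA motif and 32.7% the GC box. These are matches of letters, and binding was not measured.

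The genes of the cluster were listed below 1 FPKM in every mouse apart from its only tested genes. Mmp13, the main collagenase of rodents and a product of osteoblasts and cartilage cells, ranged from 0.284 to 4.91 FPKM in responders (median 1.62) and from 0.696 to 33.0 in non-responders (median 13.5). Non-responders 1, 3, 4 and 5 had 11.6, 16.9, 33.0 and 15.4 FPKM, above every responder, whereas non-responders 2 and 6, at 0.696 and 1.10, lay within the responders' range. Non-responders 2, 4 and 5 carry the same number in their description, so that mice of the same number differed from each other. Mmp8, the collagenase of neutrophil granules, ranged from 0.0929 to 3.23 FPKM in responders (median 0.191) and from 0.110 to 42.2 in non-responders (median 1.39). Its highest value was that of non-responder 4, and the next was 6.65, in non-responder 5. Mmp3, or stromelysin 1, was listed between 0 and 0.119 in responders and between 0 and 0.719 in non-responders. Mmp1a and Mmp1b, the rodent forms of interstitial collagenase, were listed at 0 in all 12 mice. These are near copies of each other (90.6% identity over 1453 bases), which makes their values uncertain. The others, among them the macrophage elastase gene Mmp12, the tooth enamel protease gene Mmp20 and the matrilysin gene Mmp7, stayed at or below 0.503, the value of Mmp20 in responder 1.

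**Figure D1:**
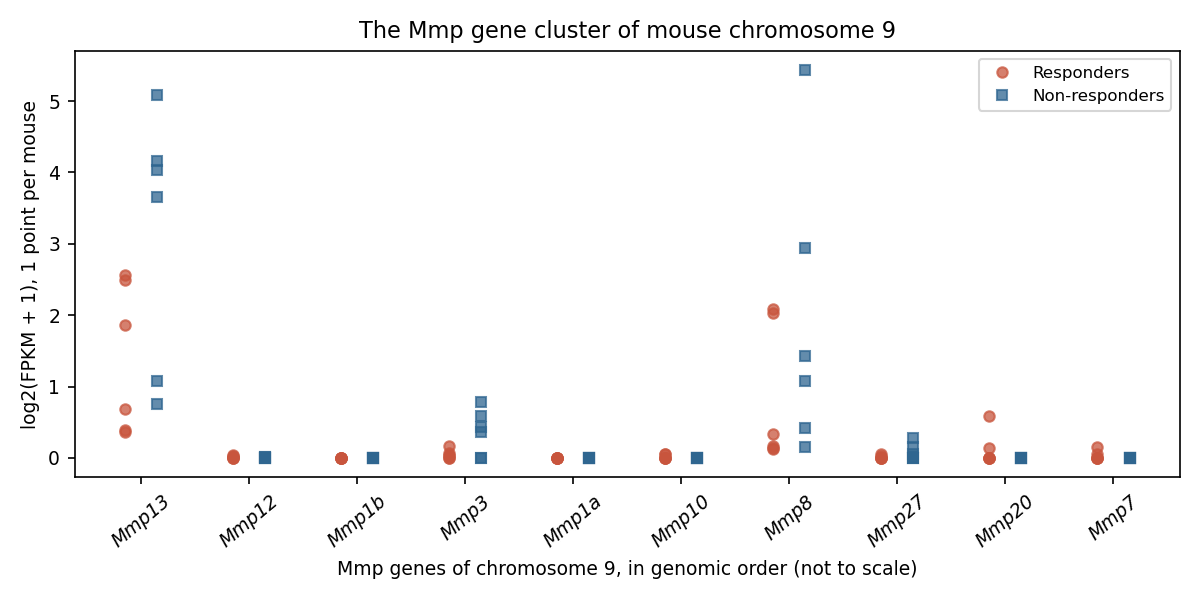
Expression of the 10 Mmp genes of chromosome 9 in genomic order, as log2(FPKM + 1) with 1 point per mouse, responders (circles) left of non-responders (squares). Mmp13 and Mmp8 are the only genes of the cluster with values above 1 FPKM, and both spread widely within each group, up to 33.0 FPKM for Mmp13 and 42.2 for Mmp8 in non-responder 4.

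No gene of the 50 passed the comparison of responders with non-responders, which asked whether matrix proteases and inhibitors differ with the response. By limma on log2(FPKM + 1) with sex as a covariate and Benjamini-Hochberg adjustment over all 14203 genes tested, 0 of the 29 tested genes had an adjusted p under 0.05, against 0.0211% of all genes. At an unadjusted p under 0.05, 7 of the 29 (24.1%) had lower values in responders and 0 had higher values, where 4.17% of all genes were lower and 3.23% higher at that level. In the fit, 24 of the 29 (82.8%) were lower in responders, against 49.3% of all genes, with a median log2 fold change of -0.20 against 0.00. That median was -0.32 with a pseudocount of 0.1 and -0.07 with no filter on low values. The groups overlapped for all 29 genes, while 0.549% of all genes tested separated them. Adamts17, Mmp8 and Mmp19, 1 of the 7, reached 1 FPKM in fewer than 3 responders and entered through the non-responders. Timp4 reached it in 1 responder and 2 non-responders. The counts over tested genes are thus a description of those that passed the filter. They also describe families chosen with earlier results of these data known, and are no independent support for a difference. Leaving out responder 3, responder 5 or non-responder 5 brought the 7 genes down to 4, and leaving out responder 1 and non-responder 4 together brought them to 5. Because the groups are whole ganglia, fewer cells of a type and less RNA per cell cannot be told apart.

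**Figure D2:**
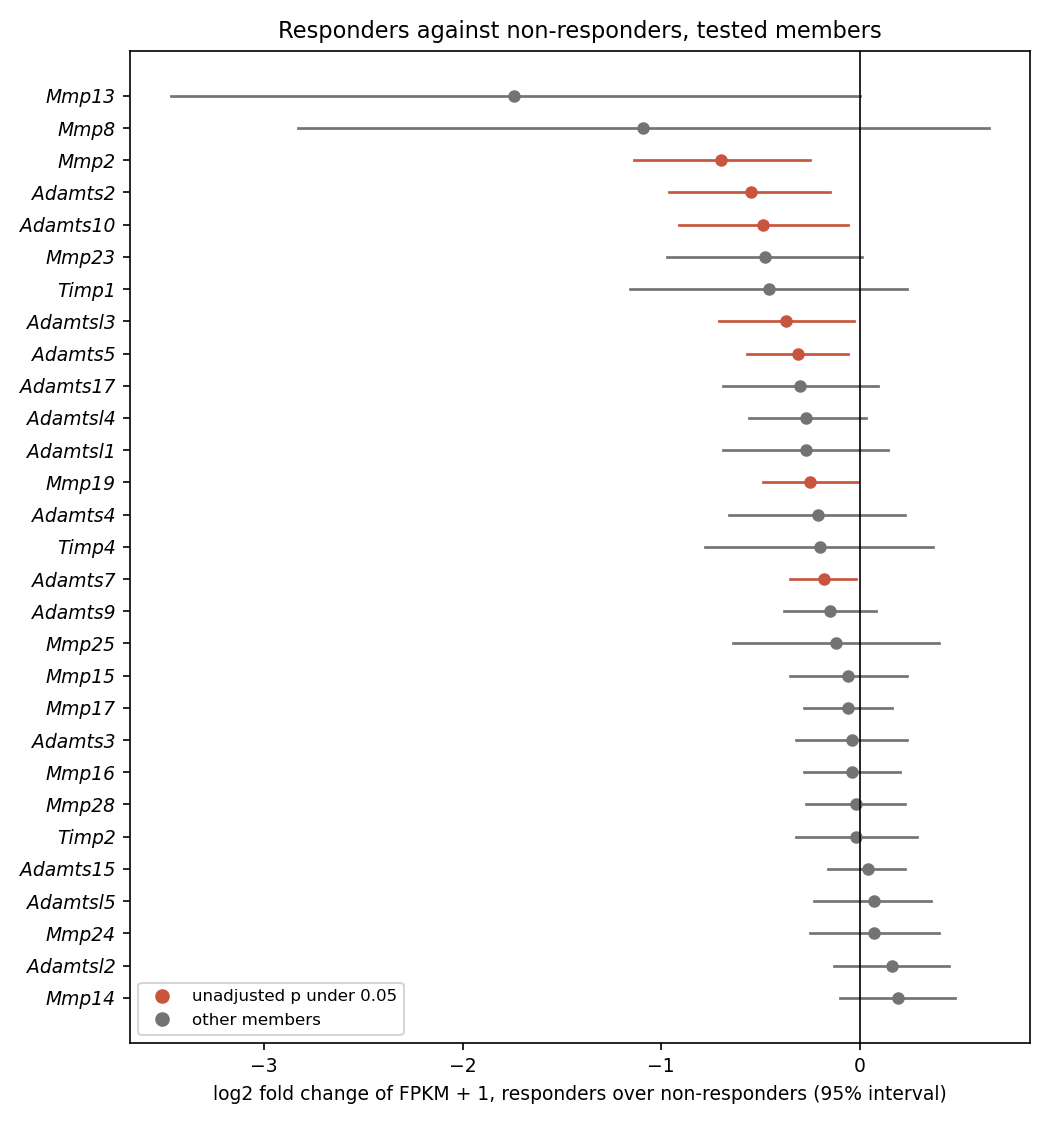
Log2 fold change of FPKM + 1, responders over non-responders, for the 29 tested genes, with the 95% interval of the limma fit. The 7 genes with an unadjusted p under 0.05 (red) all lie below 0, and none of the 29 passed after adjustment over all genes.

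Mmp2, gelatinase A, which digests denatured collagen and basement membrane collagen and is made largely by fibroblasts, had the smallest p of the 29. It ranged from 9.99 to 14.8 FPKM in responders (median 11.8) and from 11.6 to 27.4 in non-responders (median 23.6). Of the non-responders, 5 lay above every responder, and non-responder 2, at 11.6, lay among them. Non-responders 2 and 6 were the lowest of their group, as they were for Mmp13. The means were 12.2 ± 2.16 FPKM in responders and 21.0 ± 6.11 in non-responders (SD, n = 6 per group), with a log2 fold change of -0.70 (SE 0.20, 95% interval -1.14 to -0.25, unadjusted p = 0.00539, limma adjusted p = 0.478). The fold change was -0.71 in males and -0.68 in females (limma adjusted p = 0.700 and 0.726). It lay between -0.85 and -0.59 when each mouse was left out in turn. Mmp13, with its wide spread, had a log2 fold change of -1.74 (SE 0.79, unadjusted p = 0.0501, limma adjusted p = 0.676), and -2.23 to -1.27 when each mouse was left out. Mmp2 (ENSMUSG00000031740) lies on the plus strand of chromosome 8 from 92827291 to 92853420.

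MMP14, a membrane-bound enzyme, activates the Mmp2 precursor on the cell surface with TIMP2 as the bridge between them. Mmp14 had 15.8 to 17.3 FPKM in responders (median 16.9) and 10.8 to 18.4 in non-responders (median 15.5), so that the responders were the more even group, with SDs of 0.543 and 3.24 FPKM over 6 mice each. Its log2 fold change was 0.19 (limma adjusted p = 0.766). Timp2 stood at 203 to 339 FPKM in responders (median 315) and 232 to 337 in non-responders (median 313). The groups overlapped almost throughout, with a log2 fold change of -0.02 for Timp2 (SE 0.14, 95% interval -0.32 to 0.29, limma adjusted p = 0.981). Its lowest values were those of responder 1 and non-responder 4, the mice that stood apart.

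Among ADAMTS proteases, those with an unadjusted p under 0.05 came from 4 roles. Adamts2, which removes the amino-terminal propeptide of fibrillar procollagens, ranged from 2.03 to 5.45 FPKM in responders (median 2.83) and from 3.21 to 6.32 in non-responders (median 4.79). Responder 3, at 5.45, was the only responder within the upper part of the non-responders' range, and the other 5 lay below all 6 non-responders. The log2 fold change was -0.55 (SE 0.18, unadjusted p = 0.0113, limma adjusted p = 0.569), with -0.75 in males and -0.36 in females (interaction limma adjusted p = 0.843). Its relative Adamts3, which cuts the same propeptides and also processes the lymphatic growth factor VEGF-C, had 1.02 to 2.47 FPKM in responders (median 2.09) and 1.53 to 2.39 in non-responders (median 2.13), and the remaining enzyme of this kind, Adamts14, was listed at 0 in 11 mice.

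Adamts5, one of the main aggrecanases, was the most abundant ADAMTS gene. It had 5.55 to 9.65 FPKM in responders (median 7.57) and 8.09 to 10.6 in non-responders (median 10.1). Its log2 fold change was -0.31 (SE 0.12, unadjusted p = 0.0204, limma adjusted p = 0.602). Adamts4, the other classical aggrecanase, had 0.784 to 2.97 FPKM in responders (median 1.79) and 1.61 to 3.70 in non-responders (median 2.09). Of the versican-cleaving proteases, Adamts15 had 1.95 to 2.93 FPKM in responders (median 2.55) and 2.02 to 2.69 in non-responders (median 2.45). Adamts9, whose exons overlap A730049H05Rik on the other strand, had 1.73 to 2.83 in responders (median 1.96) and 1.76 to 2.84 in non-responders (median 2.44). Adamts20 reached 1 FPKM in 2 mice only, and Adamts1, the neighbour of Adamts5 on chromosome 16, stayed between 0.0543 and 0.375 FPKM. Adamts8 was listed at 0 in 6 mice.

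Adamts10, which binds fibrillin and takes part in building microfibrils, ranged from 1.36 to 3.06 FPKM in responders (median 1.96) and from 1.95 to 5.07 in non-responders (median 3.23). Non-responders 3, 4 and 5, at 4.00, 5.07 and 4.62, lay above all responders, and the other 3 lay among them. The log2 fold change was -0.49 (SE 0.19, unadjusted p = 0.0289, limma adjusted p = 0.640). Adamts17, also tied to fibrillin, had 0.322 to 1.06 FPKM in responders (median 0.606) and 0.359 to 1.79 in non-responders (median 1.01). Adamts7, which cuts cartilage oligomeric matrix protein, had 0.855 to 1.31 FPKM in responders (median 1.14) and 1.15 to 1.80 in non-responders (median 1.39), a narrow range in both groups. Its log2 fold change was -0.18 (SE 0.08, unadjusted p = 0.0344, limma adjusted p = 0.640). The exons of Adamts7 overlap those of Tbc1d2b on the other strand, and nothing in the labels says whether counting was stranded, so reads of overlapping genes on opposite strands may not have been separated.

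The remaining Adamts genes had low listed values. Adamts12, which shares its substrate with Adamts7, had 0.138 to 0.661 FPKM, and Adamts13, the protease that trims von Willebrand factor in blood, was listed between 0 and 0.437. Adamts16, Adamts18 and Adamts19, enzymes with few known substrates, stayed at or below 0.327. Adamts6, another of these, reached 1 FPKM in responder 1 alone, at 1.31, against 0.169 to 0.743 in the other mice.

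ADAMTS-like proteins bind fibrillin and other matrix proteins and carry no enzyme activity. Adamtsl5 was the highest, at 9.08 to 16.9 FPKM in responders (median 14.9) and 11.6 to 15.9 in non-responders (median 13.1), with a log2 fold change of 0.07 (SE 0.13, limma adjusted p = 0.916). Adamtsl3 ranged from 0.804 to 1.43 FPKM in responders (median 1.19) and from 1.25 to 3.57 in non-responders (median 1.46). Its highest values were those of the female non-responders 3 and 6, at 3.57 and 2.23. The log2 fold change was -0.37 over all mice (SE 0.16, unadjusted p = 0.0357, limma adjusted p = 0.640), -0.57 in females and -0.17 in males, and the interaction did not pass (limma adjusted p = 0.836). Adamtsl4, known for holding the eye lens in place, had 2.04 to 3.53 FPKM in responders (median 2.97) and 2.97 to 5.05 in non-responders (median 3.40). Adamtsl1 had 1.52 to 3.33 FPKM in responders (median 1.84) and 1.498 to 3.80 in non-responders (median 2.93). Adamtsl2, which binds latent TGF-beta binding protein, had 0.884 to 2.25 FPKM in responders (median 1.27) and 0.870 to 1.26 in non-responders (median 1.09).

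**Figure D3:**
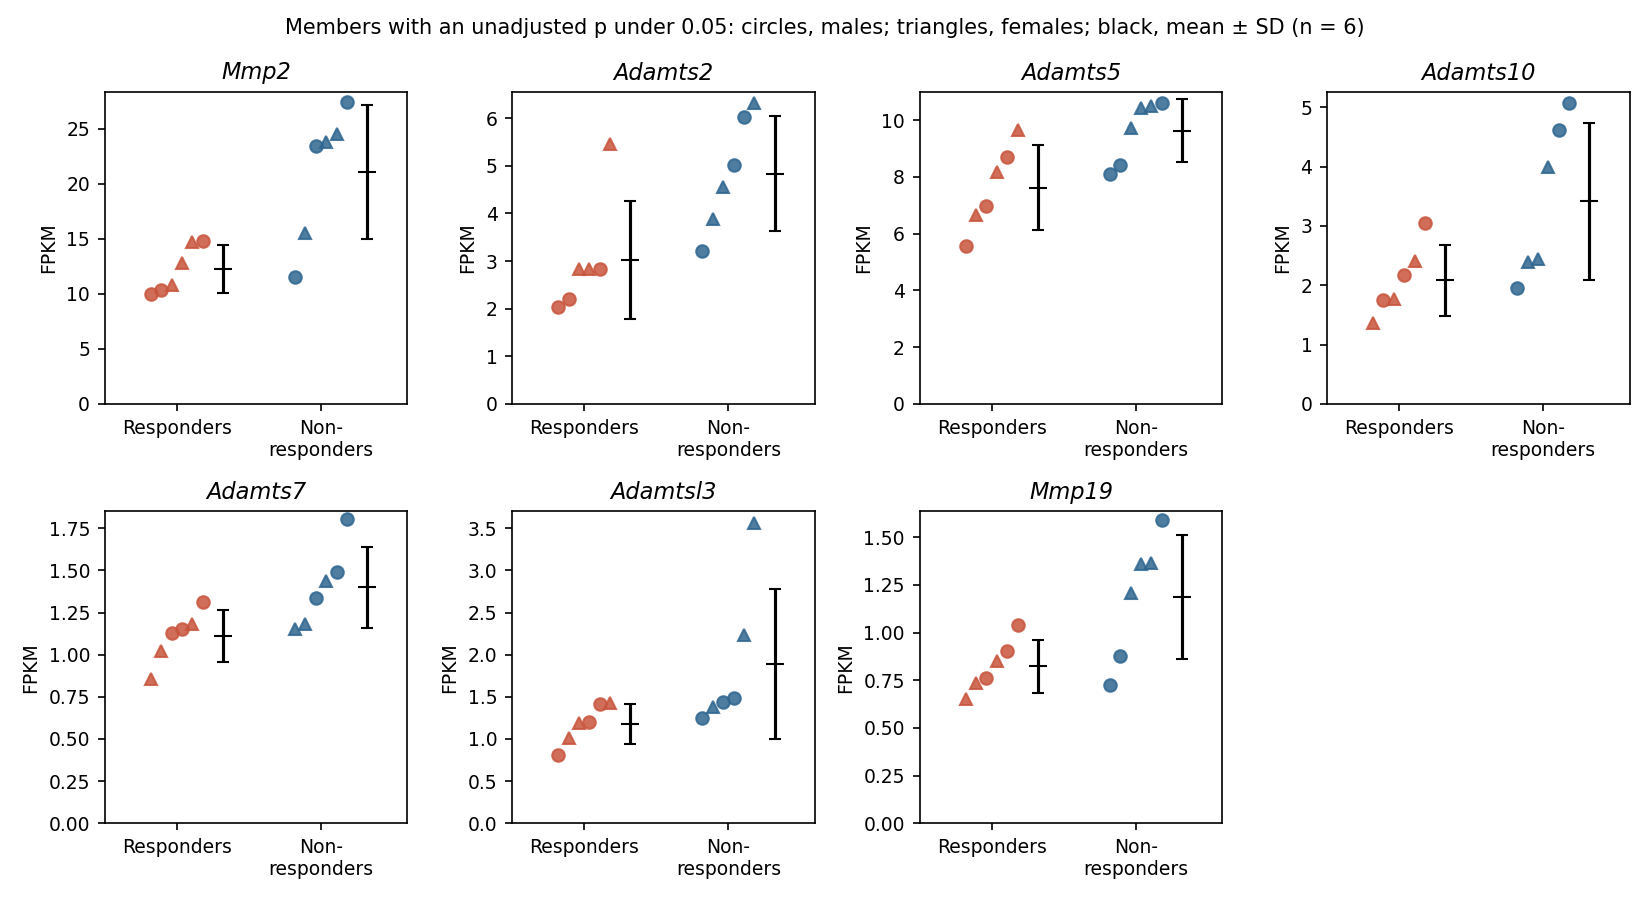
FPKM of the 7 genes with an unadjusted p under 0.05, responders left of non-responders, circles for males, triangles for females, black bars for the mean ± SD of 6 mice. Mmp19 entered the test through the non-responders. In each panel the lowest non-responder lies within the range of the responders, so that no gene separates the groups, and Mmp2 averages 12.2 FPKM in responders against 21.0 in non-responders.

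Membrane-bound MMPs included the most abundant protease gene, and 0 of the 7 had an unadjusted p under 0.05. Mmp15, an anchored protease with a transmembrane segment, had 29.0 to 47.2 FPKM in responders (median 36.1) and 28.8 to 46.1 in non-responders (median 39.8), with a log2 fold change of -0.06 (SE 0.13, 95% interval -0.35 to 0.24, limma adjusted p = 0.936). Mmp24, which is made by nociceptive neurons in mice and cuts N-cadherin, had 6.29 to 10.9 FPKM in responders (median 10.5) and 6.38 to 11.3 in non-responders (median 9.54). Its exons overlap BC029722 on the other strand. Mmp16, which cuts matrix at the cell surface, had 2.24 to 2.97 FPKM in responders (median 2.64) and 2.04 to 3.59 in non-responders (median 2.84). Of the lipid-anchored enzymes, Mmp17 had 1.25 to 2.50 FPKM in responders (median 1.80) and 1.67 to 2.13 in non-responders (median 1.98), and Mmp25 had 1.91 to 7.15 in responders (median 3.83) and 2.56 to 5.37 in non-responders (median 4.40). Mmp23, which lacks the usual haemopexin domain, had 1.07 to 1.87 FPKM in responders (median 1.56) and 1.25 to 4.76 in non-responders (median 2.25), the highest being non-responders 3 and 4 at 4.76 and 4.21.

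Mmp28, a secreted MMP with a furin site that is known for its part in myelination, had 2.14 to 3.94 FPKM in responders (median 3.65) and 2.84 to 3.90 in non-responders (median 3.50), with a log2 fold change of -0.02 (SE 0.11, limma adjusted p = 0.971). Its exons overlap 1700020L24Rik on the other strand. Mmp11 and Mmp21, of the same kind, were low: Mmp11 had 0.00314 to 0.980 FPKM in responders and 0.0828 to 1.53 in non-responders, and Mmp21 was listed at 0 in 11 mice. Mmp19, a secreted MMP of many tissues, had 0.652 to 1.04 FPKM in responders (median 0.804) and 0.726 to 1.59 in non-responders (median 1.28). Mmp19 reached 1 FPKM in 1 responder and 4 non-responders, and so entered the test through the group where it was higher. Its log2 fold change was -0.25 over all mice (SE 0.11, unadjusted p = 0.0427, limma adjusted p = 0.651), -0.41 in females and -0.10 in males. The interaction for Mmp19 did not pass (limma adjusted p = 0.836), and its exons overlap those of Tmem198b on the other strand.

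The inhibitors were led by Timp2, which made up between 97.6% and 99.5% of the Timp sum in responders and between 97.1% and 99.5% in non-responders. Timp1, the inducible inhibitor, had 1.31 to 4.33 FPKM in responders (median 1.62) and 0.869 to 5.27 in non-responders (median 3.53). Responder 1 was the only responder above 2 FPKM of Timp1, and non-responders 1, 3, 4 and 5 were above 3, again the mice with the highest Mmp13 in their group. The log2 fold change of Timp1 was -0.46 (SE 0.32, limma adjusted p = 0.766). Timp4, an inhibitor of heart and fat, had 0.0906 to 2.31 FPKM in responders (median 0.285), with the highest in responder 3, and 0.246 to 1.26 in non-responders (median 0.630). Timp3, which binds to the matrix, did not enter the test, at 0.0772 to 0.217 FPKM in responders and 0.104 to 0.626 in non-responders. Timp1, Timp3 and Timp4 each lie within a synapsin gene on the other strand, a neuronal gene: Syn1 had 52.3 to 110.0 FPKM in responders and 62.5 to 83.3 in non-responders, and Syn2, the host of Timp4, had 4.04 to 33.0 in responders and 7.69 to 26.2 in non-responders. Exons of Timp3 and Timp4 overlap those of Syn3 and Syn2. Syn3 had 1.12 to 2.04 FPKM in responders and 0.914 to 1.61 in non-responders, and a Timp3 transcript matched one of Syn3 at 100% over 1733 bases, so that the values of Timp3 and Timp4 are uncertain.

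Summed by family, the 22 Mmp genes (without Mmp9) came to 75.5 to 106.0 FPKM in responders (median 95.3) and 90.3 to 169.6 in non-responders (median 120.2). The 19 Adamts genes came to 22.3 to 27.5 FPKM in responders (median 25.0) and 27.0 to 34.6 in non-responders (median 32.3), so that responder 3 and non-responder 2 alone made the groups overlap. The Timp sum was 207 to 341 FPKM in responders and 239 to 339 in non-responders. Its ratio to the Mmp sum was 2.75 to 3.47 in responders (median 3.27) and 1.41 to 3.75 in non-responders (median 2.55), the lowest in non-responder 4 and the highest in non-responder 2. Mmp13 made up between 0.289% and 5.31% of the Mmp sum in responders and between 0.771% and 19.4% in non-responders. These sums are descriptions, without a test.

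**Figure D4:**
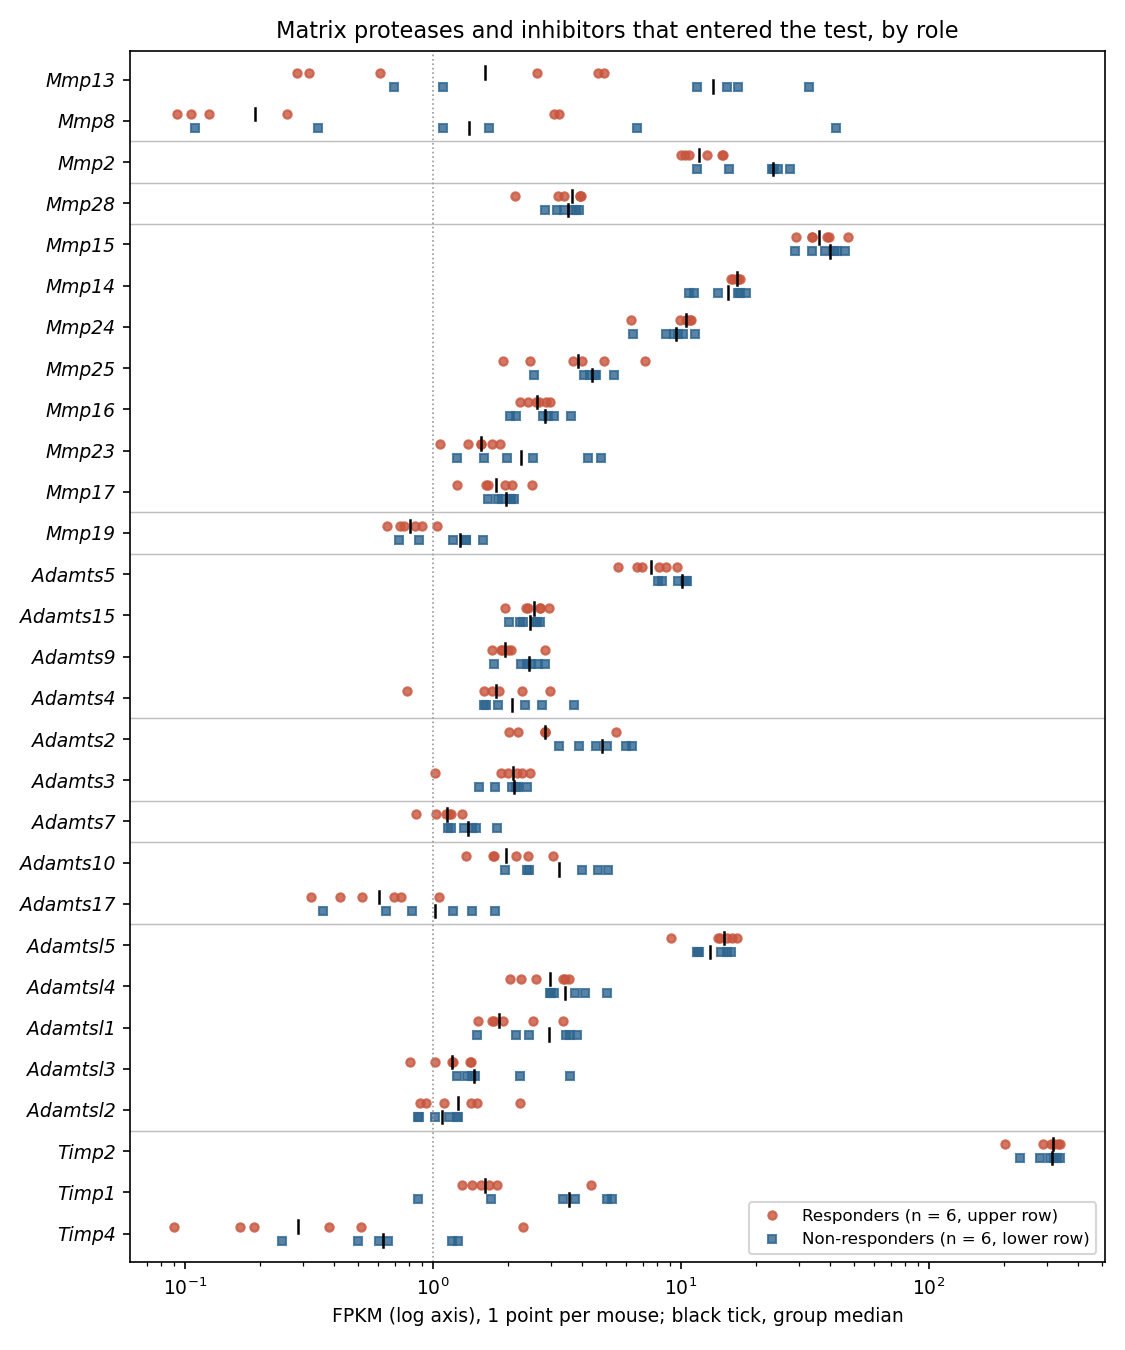
FPKM of the 29 tested genes on a log axis, 1 point per mouse, grouped by role, with responders in the upper row and non-responders in the lower row of each gene and a black tick at each median. Timp2 stands far to the right, between 203 and 339 FPKM, while Mmp8, Mmp13 and Timp4 spread most from mouse to mouse.

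Variation between mice differed from gene to gene. The coefficient of variation over the 12 mice had a median of 30.4% for the 29 tested genes and of 22.4% for all genes tested. Mmp8 had 242.3% and Mmp13 129.9%, with highest over lowest values of 454 and 116, followed by Timp4 (94.3%), Timp1 (58.7%), Mmp23 (55.0%) and Adamts17 (54.5%). These 6 of the 29 genes passed a coefficient of 50%, as did 16.8% of all genes tested, so that such genes were not particular to these families. Within responders alone Mmp13 varied by 96.6% and within non-responders by 91.1%.

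Several of these proteases are known from tissues that border the ganglion, and their levels ran with the markers of those tissues from mouse to mouse. Of 14 pairs of a gene and a marker list, Mmp12 was left out because it was listed at 0 in some mice, and 8 of the other 13 passed (Pearson's r over 12 mice on log2 values, 2-sided permutation test, Benjamini-Hochberg over 13 pairs). Mmp13 followed the bone and cartilage markers with r = 0.97 and rho = 0.97 (permutation p = 1e-05 for both, the smallest the permutations can give, adjusted p = 8.67e-05 and 0.00013). The r of Mmp13 was 0.89 within responders and 0.99 within non-responders, and 0.95 without non-responders 3 and 4, the farthest on the marker axis. Mmp8 followed the neutrophil markers with r = 0.97 and rho = 0.94 (permutation p = 2e-05 and 4e-05, adjusted p = 8.67e-05 and 0.00026). Its r was 0.99 within responders, 0.98 within non-responders and 0.98 without non-responders 4 and 5. Adamts4, a gene of myelinating oligodendrocytes in the mouse brain, followed the oligodendrocyte and central glia markers with r = 0.93 and rho = 0.90 (permutation p = 2e-05 and 0.00017, adjusted p = 8.67e-05 and 0.000737). Its r was 0.95 within responders, 0.93 within non-responders and 0.84 without responder 4 and non-responder 6.

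Mmp24 followed the sensory neuron markers with r = 0.84 and rho = 0.76 (permutation p = 0.00044 and 0.00614, adjusted p = 0.00143 and 0.0133). Within responders its r was 0.80 but its rho 0.26, and neither passed adjustment. Responder 1 was far below the other responders for Mmp24. Within non-responders r was 0.94 and rho 0.83, and without non-responder 4 and responder 5 r was 0.79. Mmp2 ran with the fibroblast and meningeal markers at r = 0.84 and rho = 0.78 (permutation p = 0.00128 and 0.00355, adjusted p = 0.00333 and 0.00923), but r was -0.03 within responders and 0.82 within non-responders, so the relation did not hold within responders. Adamts2 had r = 0.79 and rho = 0.83 with the same markers (permutation p = 0.00281 and 0.00166, adjusted p = 0.00609 and 0.00539). Within responders its r was 0.19 and its rho 0.54, neither past adjustment, and within non-responders its r was 0.96. Over the 11 mice without responder 3, the highest responder for Adamts2, r was 0.90. Without non-responders 3 and 5, r was 0.74 for Mmp2 and 0.69 for Adamts2, the second no longer past adjustment (permutation adjusted p = 0.0598). Timp1 had r = 0.67 and rho = 0.53 with the same markers (permutation adjusted p = 0.0318 and 0.104) and -0.30 within responders against 0.89 within non-responders. Its call was lost without responder 2 or 5 or without non-responder 2, 3, 4 or 5, at r of 0.66, 0.65, 0.64, 0.57, 0.61 and 0.64, and r was 0.85 without responder 1. Without non-responders 3 and 5 together r was 0.50 and did not pass (permutation adjusted p = 0.187). Mmp17 had r = 0.70 and rho = 0.64 with the Schwann cell markers (permutation adjusted p = 0.0243 and 0.0466), r = 0.89 within responders and 0.63 within non-responders, but r = 0.43 without responder 1 and 0.53 without responder 1 and non-responder 6.

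No relation passed for Timp4 with adipocyte markers (r = 0.49, rho = 0.70, permutation adjusted p = 0.144 and 0.0265, the rank value alone being under 0.05), where r was 0.80 and past adjustment without responder 3 (permutation adjusted p = 0.0073). None passed for Timp3 with pericyte markers (r = 0.35, rho = 0.57), Adamts1 with endothelial markers (r = 0.31, rho = 0.40), Adamtsl2 with skeletal muscle markers (r = -0.26, rho = -0.36) or Mmp25, another neutrophil enzyme, with neutrophil markers (r = -0.10, rho = -0.10), with permutation adjusted p of 0.336, 0.377, 0.458 and 0.748 for r and 0.0791, 0.237, 0.276 and 0.751 for rho. All pairs share the libraries and their depth. The marker lists, like the members, were chosen with earlier results of these data known. Each gene was set against a single list, so whether it follows other lists as closely was not tested. Col1a1 of the fibroblast and meningeal list was, like Mmp13, lowest among non-responders in non-responders 2 and 6, at 15.8 and 26.8 FPKM.

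**Figure D5:**
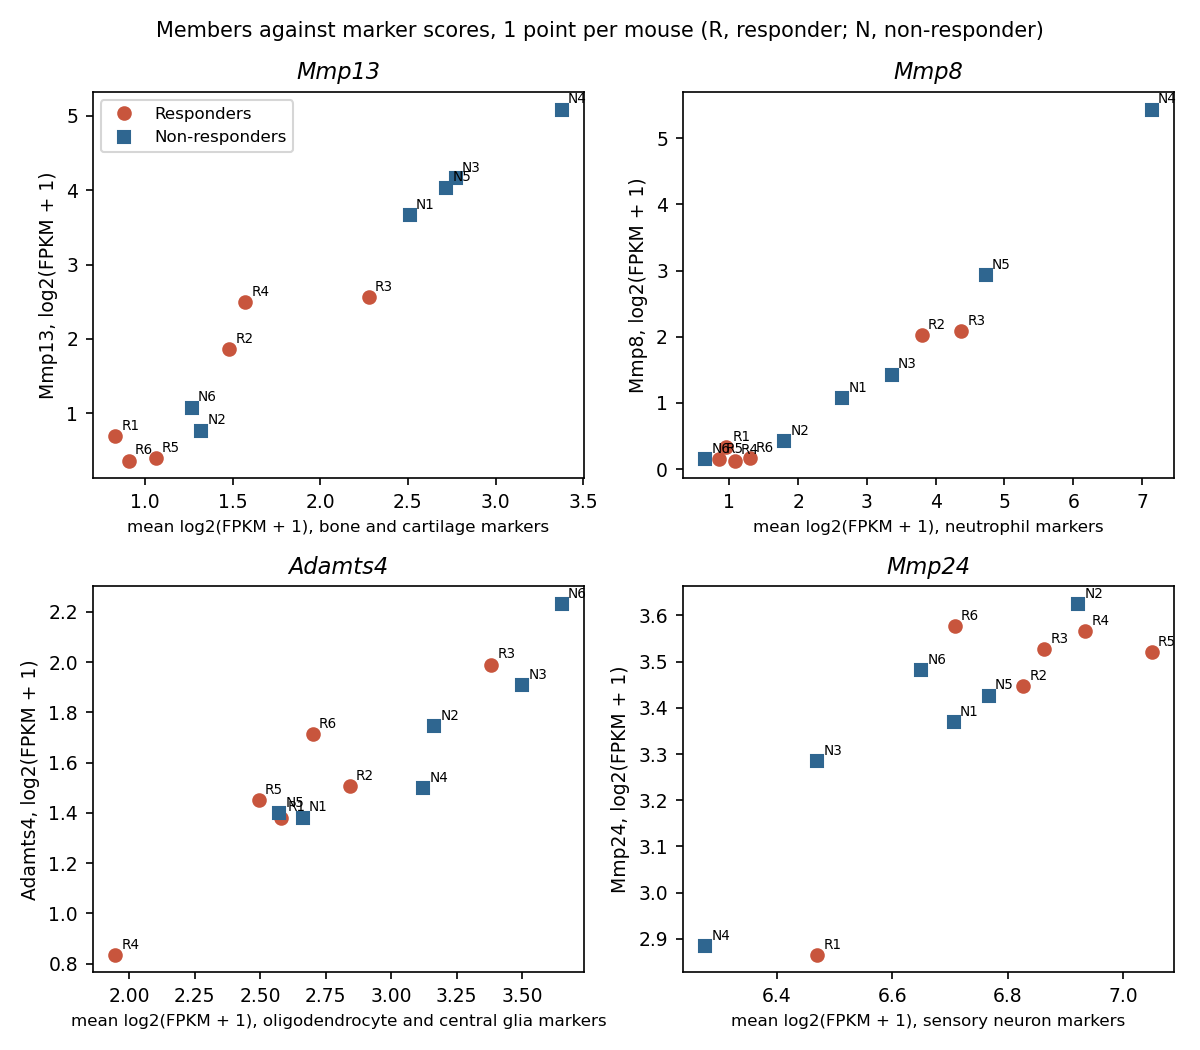
Log2(FPKM + 1) of Mmp13, Mmp8, Adamts4 and Mmp24 against the mean log2(FPKM + 1) of a marker list, 1 labelled point per mouse, responders as circles and non-responders as squares. The points follow a line in both groups for the first 3 genes, with r of 0.97, 0.97 and 0.93 over 12 mice, and non-responder 4 is at the far end for Mmp13 and Mmp8.

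Most markers of these tissues had lower values in responders themselves. Of 8 bone and cartilage markers tested, 8 were lower, 4 of them at an unadjusted p under 0.05, and the list summed to 13.0 to 94.2 FPKM in responders and 24.4 to 321 in non-responders, with Col2a1 and Alpl listed at 0 in at least 1 mouse. All 12 neutrophil markers were lower, 0 at that level, with sums of 12.3 to 643 FPKM in responders and 8.28 to 4320 in non-responders, and Elane, Ly6g and Cxcr2 were listed at 0 in at least 1 mouse. Of 11 fibroblast and meningeal markers tested, 9 were lower, 6 at that level, and the list of 13 summed to 511 to 894 FPKM in responders and 729 to 2110 in non-responders, none at 0. Of 9 oligodendrocyte and central glia markers tested, 8 were lower, 2 at that level, with sums of 67.2 to 244 FPKM in responders and 118 to 454 in non-responders, and Mog was listed at 0 in at least 1 mouse. Of 11 Schwann cell markers tested, 10 were lower, 7 at that level, with sums of 2350 to 4540 FPKM in responders and 4330 to 6400 in non-responders. Lower too were 9 of 9 pericyte, 9 of 9 skeletal muscle, 3 of 3 adipocyte, 9 of 10 endothelial and 6 of 8 satellite glia markers tested. Sensory neuron markers ran the other way, with 13 of 14 higher, 1 at that level. So did pituitary markers, with 11 of 11 higher and 10 at that level, and macrophage markers, with 6 of 9 higher and 0 at that level. Of all genes tested, 49.3% were lower, and at that level 4.17% were lower and 3.23% higher. None of these markers passed limma. The part of these tissues in the differences of Mmp2, Mmp13, Adamts2 and the others was not tested.

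In 7 lists of other genes of matrix turnover, 0 of the 68 genes tested passed limma over all genes. These lists too were chosen with earlier results of these data known. Of all genes tested, 49.3% had lower values in responders and 4.17% did so at an unadjusted p under 0.05. Among substrates of these proteases, 10 of 15 tested (66.7%) were lower in responders, 4 at an unadjusted p under 0.05 and 0 higher at that level, with a median log2 fold change of -0.36. The collagen-binding proteoglycan gene Fmod had 5.42 ± 2.50 FPKM in responders and 20.6 ± 12.6 in non-responders (SD, n = 6 per group), a log2 fold change of -1.65 (limma adjusted p = 0.308), and the fibronectin gene Fn1 had 2.98 ± 3.05 in responders and 10.5 ± 7.22 in non-responders (log2 fold change -1.51, limma adjusted p = 0.602). Of 14 tested genes of fibrillin microfibrils and elastic fibres, 12 (85.7%) were lower, 4 at that level (median -0.35), such as Ltbp1, which stores latent TGF-beta, with a median of 1.25 FPKM in responders and 2.59 in non-responders (limma adjusted p = 0.586). All 5 tested genes of procollagen processing were lower, 1 at that level (median -0.29): Pcolce, an enhancer of the carboxy-terminal protease, had 5.62 ± 1.18 FPKM in responders and 8.02 ± 2.35 in non-responders (limma adjusted p = 0.640).

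Among 12 cathepsin and HtrA proteases, 8 (66.7%) had lower values, 2 of these with an unadjusted p under 0.05 (median -0.05), led by Ctsk, the collagen-degrading cathepsin of osteoclasts and also in the bone marker list, at 8.11 ± 4.33 FPKM in responders and 25.4 ± 15.8 in non-responders (SD, n = 6 per group; limma adjusted p = 0.590). Of 12 other inhibitors and regulators 9 were lower, 1 at that level (median -0.08), the hyaluronan-binding inhibitor family gene Itih5 at 20.6 ± 2.05 FPKM in responders and 25.9 ± 3.24 in non-responders (limma adjusted p = 0.512). Of 7 ADAM proteases 4 (57.1%) were lower, 0 at that level (median -0.01), and of the 8 genes of the plasminogen activator system only Plat, Plau and Plaur entered the test, all lower and 0 at that level (median -0.17).

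In the comparison of the sexes, 0 of the 29 genes passed limma in females against males, where 0.0563% of all genes did, and 0 had an unadjusted p under 0.05, against 4.53% of all genes. The smallest unadjusted p was that of Adamts7 (0.0797, limma adjusted p = 0.864, log2 fold change -0.15). For the response by sex interaction 0 of 29 passed limma, against 0% of all genes, and 0 had an unadjusted p under 0.05, against 5.01%. Within males, 27 of the 29 genes had lower values in responders (93.1%, against 50.9% of all genes). Within females 17 of the 29 did (58.6%, against 50% of all genes). These counts were compared only gene by gene, as the interaction. All male non-responders carry the same description number, and no number holds both sexes. Differences between the sexes and between numbers therefore cannot be told apart, here or in the interaction. Responder 1 and non-responder 4, the mice that stood apart, are both male. The male comparison therefore holds both of them and the female comparison neither, and their part in the counts was not tested. Within males, 2 genes had lower values in responders at that unadjusted level, Adamts2 and Mmp2, where 3.67% of all genes did, and 0 passed limma, against 0.0141% of all genes. Within females 3 genes did, Mmp19, Adamtsl3 and Mmp2, against 3.68%, and 0 passed limma, against 0.00704%.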

How the data were processed

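RNA of 12 mice was sequenced after poly A selection, per the labels' protocols. The authors deposited FPKM values, a unit read from totals that differed between mice (286388 to 358590). The submitters' processing notes name STAR 2.6.0a, StringTie 1.3.5, GRCm38 and mm10, with no annotation or settings. GENCODE M21 gave symbols for 51076 of 51341 identifiers. The members and gene lists were chosen with earlier results of these data known.

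Genes reaching 1 FPKM in 3 or more mice entered limma 3.58.1 (R 4.3.3, 2-sided) as log2(FPKM + 1), which understates changes of low genes. Response was fitted with sex as a covariate, and the interaction from 4 cell means. The design had allowed for counts. Implied depth is approximate, and no counting intervals were made. Marker scores are mean log2 values, tested with 100000 permutations over 12 mice and exact permutation within groups of 6. P-values measure the spread between these mice. Copies were searched with blastn 2.17.0. The fit was tested on simulated data. Fold changes are given for members with an unadjusted p under 0.05 and the most abundant tested member of each role, and other lists show up to 3 genes of smallest p. Fold changes of Mmp14 and Timp1 were added after their values were seen.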

Additional observations from a re-analysis of the deposited data

Results flagged for a closer look

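In 8 of 58 groups of 6 mice, 1 mouse lay far from the other 5, by Dixon's criterion at its 95% value, which chance meets in about 1 of 20 groups. Responder 1 was the distant mouse in 5 of these. It had the highest Adamts9 (2.83 FPKM, next 2.07) and Timp1 (4.33, next 1.81) of the responders, and the lowest Adamtsl5 (9.08, next 14.2), Mmp24 (6.29, next 9.90) and Timp2 (203, next 289). Responder 3 had the highest Adamts2 (5.45, next 2.83) and Timp4 (2.31, next 0.514) of the responders. Non-responder 4 had the highest Mmp8 of the non-responders, at 42.2 FPKM with 6.65 next. Responder 1 also had the highest pituitary marker sum and non-responder 4 the highest neutrophil marker sum, and the part of either in these values was not tested.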

How the results depend on the processing

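Over 24 alternatives of the response comparison, 0 of the 50 genes passed limma, with a smallest adjusted p of 0.156, for Mmp2 without non-responder 2. The fold changes of Mmp2, Adamts2, Adamts5, Adamts7, Adamts10, Adamtsl3, Mmp13 and Mmp19 stayed below 0 in all of them. Genes lower at an unadjusted p under 0.05 numbered 4 to 10 when each mouse was left out, and 4 without non-responders 3 and 4 together, a setting chosen after seeing the data, where 1 gene, Mmp14, was higher. The median log2 fold change was -0.32 with a pseudocount of 0.1 and -0.07 with no filter on low values, where many genes near 0 entered. Fold changes near 0 turned sign: Mmp28 to 0.03 with array weights and 0.03 without responder 1 and non-responder 4 together, Timp2 to 0.02 in both, and Mmp15 to 0.02 and Timp2 to 0.03 with mice averaged by description number. Leaving out each mouse gave -0.08 to 0.07 for Mmp28, -0.12 to 0.02 for Mmp15 and -0.09 to 0.09 for Timp2. The cause was not tested.

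The replicate numbers of the titles do not pair the mice: deviations of same-numbered mice correlated between -0.273 and 0.133. Each responder correlated better with a non-responder of another number. With the number as a replicate block, 0 genes passed, 7 were lower at an unadjusted p under 0.05, and Mmp2 stayed at -0.70 (limma adjusted p = 0.608).

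Correlations past adjustment over 12 mice were no longer past it within the 6 responders: r was 0.89 for Mmp13, 0.99 for Mmp8, 0.95 for Adamts4, 0.89 for Mmp17, 0.80 for Mmp24 and 0.19 for Adamts2, and turned to -0.03 for Mmp2 and -0.30 for Timp1. Within non-responders Mmp2 (0.82) and Mmp17 (0.63) did not pass. Without the 2 mice farthest on the marker axis Timp1 (0.50), Adamts2 (0.69) and Mmp17 (0.53) did not pass, as deviations from group means Timp1 (0.60) and Adamts2 (0.60) did not, nor did Timp1 on TPM values (0.60). Timp4 passed with a pseudocount of 0.1 (0.64). Adamtsl2 turned to 0.20 without the 2 farthest mice and 0.22 within responders. Leaving out each mouse gave 0.57 to 0.85 for Timp1, 0.43 to 0.80 for Mmp17, 0.40 to 0.80 for Timp4 and -0.34 to 0.08 for Mmp25. Depth limits the genes below 1 FPKM, whose values rest on few fragments.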
